A study of Mus musculus with 7 samples.

Results

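The genes described here are 40 genes of mitosis and the mitotic spindle, measured by RNA sequencing in primary granulosa cells, somatic cells that enclose and nourish the oocyte within a follicle. They were chosen by gene symbol, and all 40 were found among the 55228 gene rows of the count table. The cells came from ovaries of C57BL/6J mice and were untreated. The WT group, wild type, had 4 libraries, and the KO group, labelled as a knockout of Fhl2, which encodes a LIM domain protein, had 3. The labels give no allele, no age of the mice and no time in culture, nor do they tie each library to its own animal or culture. The p-values therefore rest on the variation among these libraries alone, and that may be technical.

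Cells that enter mitosis condense their chromosomes, build a bipolar spindle of microtubules, attach each chromosome to it through the kinetochore, and divide the cytoplasm by cytokinesis. Kinases such as Cdk1, Plk1 and the Aurora kinases drive these steps, kinesins move chromosomes and slide microtubules, and the anaphase-promoting complex ends mitosis by marking cyclins and securin for destruction. Many of these genes are transcribed late in the cell cycle, so their summed RNA is widely used as a sign of dividing cells, and division of granulosa cells is how a follicle grows.

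Of the 40 genes, 34 fell in the KO libraries past adjusted p 0.05 in edgeR's quasi-likelihood test, with Benjamini-Hochberg adjustment over all 15798 tested genes. Of all genes tested, 15.6% were called lower and 13.5% higher. None of the 40 was called higher by edgeR or by DESeq2, and 0 were higher at an unadjusted p under 0.05. The log2 fold change, KO over WT, had a median of -0.55 over the 40 genes, beside -0.00 over all genes tested, and ran from -1.06 for Mki67 to -0.08 for Ccnb1. The change was smaller than 2-fold in every gene except Mki67. Levels are given as CPM, the count scaled to a common library size with TMM factors. The 40 genes together held 2609, 2528, 2748 and 2622 CPM in WT libraries 1 to 4 and 1983, 1696 and 1821 CPM in KO libraries 1 to 3. Every KO library thus lay below every WT library in the sum, and KO library 2 was the lowest. Gene by gene, the 3 KO libraries lay below all 4 WT libraries for 35 of the 40, beside 17.7% of all genes tested. In bulk RNA, fewer dividing cells and less RNA of these genes per dividing cell cannot be told apart.

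**Figure D1:**
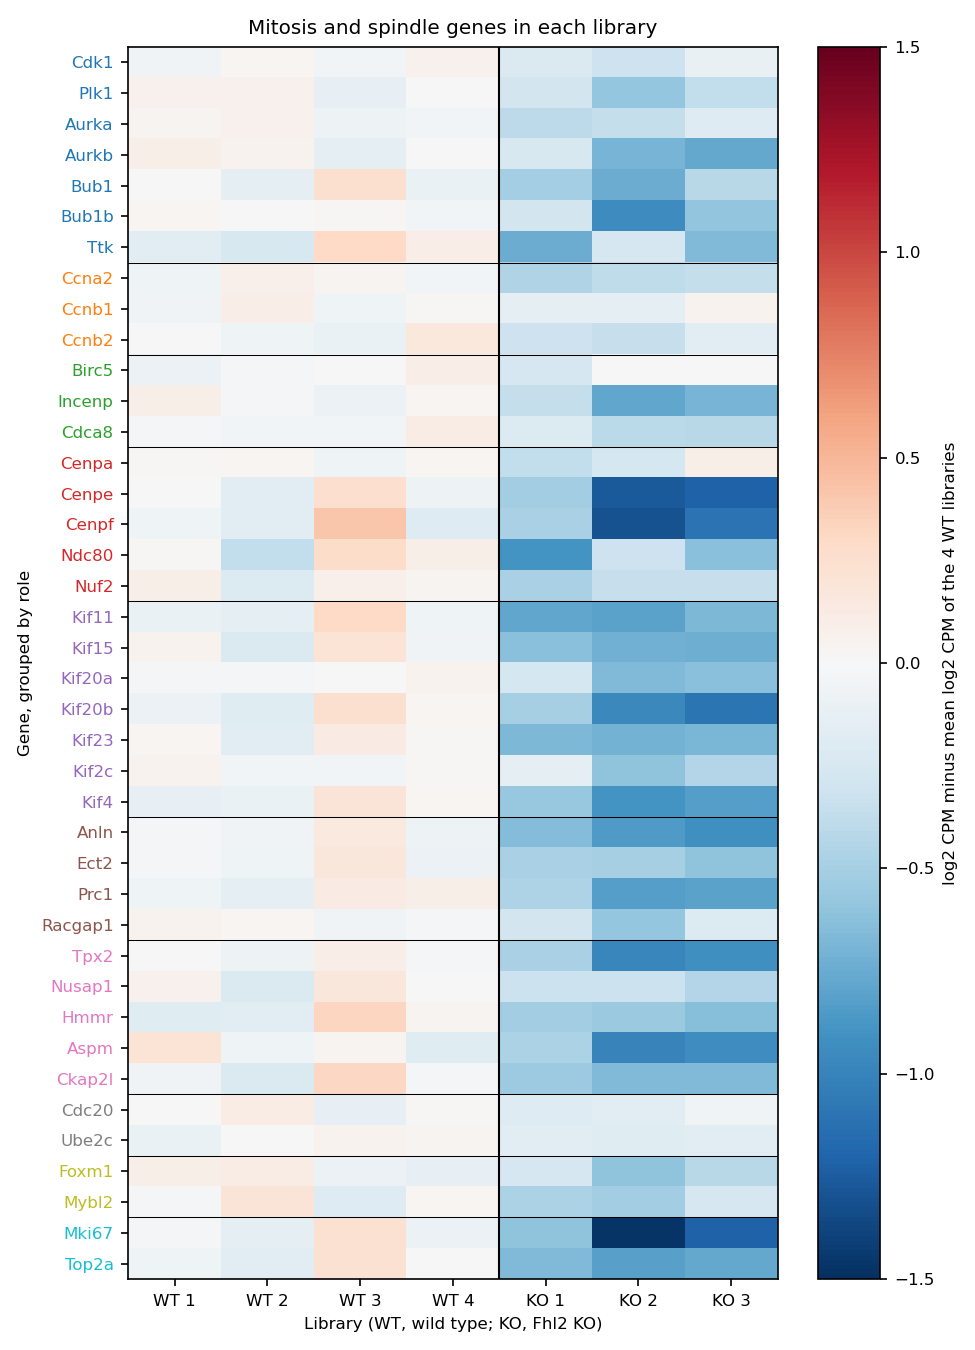
Level of each of the 40 genes in each library, as log2 CPM minus the mean log2 CPM of the 4 WT libraries (colour), with genes grouped by role on the vertical axis and libraries on the horizontal axis. The KO columns are mostly blue, palest for Ccnb1, Birc5, Cenpa, Cdc20 and Ube2c, and WT library 3 is the reddest WT column, since it held the highest WT value of 20 genes.

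The libraries held 38855596 to 50514556 counts. Fhl2 itself stood at 101, 114, 106 and 109.8 CPM in WT libraries 1 to 4 and at 47.9, 66.7 and 60.3 CPM in KO libraries 1 to 3, so its reads fell to 54.1% of the WT mean and were not absent (log2 fold change -0.88, SE 0.11, edgeR adjusted p = 3.30e-05). Of 10 granulosa marker genes, 9 were tested, 5 lower and 2 higher in KO, and their sum was 4525 to 5215 CPM in WT and 4004 to 4850 in KO. Inha and Inhba made up most of it and moved in opposite directions. Inha rose from a mean of 1042 CPM in WT to 1699 in KO, and Inhba fell from 3095 to 2026. Cyp19a1, the aromatase gene of mature granulosa cells, had 0 counts in the WT libraries and at most 0.362 CPM in KO. Some marker sums of other cells differed between the groups. Theca and stroma markers summed to 72.3 to 89.2 CPM in WT and 26.4 to 32.3 in KO (2 of 4 tested lower, Cyp17a1 at 0 to 0.0659 CPM). Most of this sum was Col1a1, at a mean of 72.7 CPM in WT and 24.5 in KO. Dcn overlapped and did not pass, at 0.517 and 0.690 CPM. Smooth muscle markers summed to 875 to 966 and 462 to 541 CPM (3 of 4 lower, Rgs5 at 0 counts throughout). Acta2 made up most of that sum, at a mean of 882 CPM in WT and 490 in KO. Luteal markers summed to 283 to 317 and 796 to 931 CPM (4 of 4 higher, mostly Cyp11a1, with Ptgfr at 0 counts in WT). Surface epithelium markers summed to 109 to 125 and 138 to 181 CPM (4 of 6 higher). Most of the latter sum was Krt8 and Krt18, and Krt8 did not pass. Endothelial, immune and oocyte markers overlapped between the groups, with sums of at most 2.57, 24.7 and 10.4 CPM. None of the 4 endothelial and 4 immune markers tested was called, and of 6 oocyte markers 1, Bmp15, was lower. Lung genes summed to 0.746 to 18.3 CPM in KO beside at most 0.155 in WT (2 of 2 tested higher). Their part in the fall of the mitosis genes was not tested.

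Promoters are shown because the members moved together, and because a pair of short motifs is known from genes transcribed late in the cell cycle: the cell cycle genes homology region (CHR, TTTGAA or TTCGAA) and the CCAAT box, the binding site of NF-Y. RefSeq promoters (GRCm38.p6, 250 bases before to 50 after a listed start) were found for 34 of the 40, and not for Aurkb, Ccna2, Incenp, Kif20a, Tpx2 and Foxm1. On either strand, CHR letters stood in the promoters of 28 of the 34 (82.4%), beside 21.7% of 27025 genes with a promoter and 16.1% of the genes tested. CCAAT stood in 25 of the 34 (73.5%), beside 41.1% and 42.8%, and both in 23 (67.6%), beside 8.61% and 6.69%. These 3 motifs share no letters where they are marked below, TTCGAA reads the same on both strands, and a match of letters is a description, not a site. The 8 stretches shown are those of the gene that fell most (Mki67), of a further 3 from different roles with all KO libraries below WT (Top2a, Kif11 and Prc1), and of 4 that did not pass the test (Cdk1, Cdc20, Ube2c and Ccnb1). They end just before the listed start, or 20 bases (Ube2c) and 60 bases (Ccnb1) further upstream, and capitals mark CHR letters (TTTGAA or TTCGAA, or TTCAAA on the opposite strand) and CCAAT (or ATTGG on the opposite strand).
Mki67: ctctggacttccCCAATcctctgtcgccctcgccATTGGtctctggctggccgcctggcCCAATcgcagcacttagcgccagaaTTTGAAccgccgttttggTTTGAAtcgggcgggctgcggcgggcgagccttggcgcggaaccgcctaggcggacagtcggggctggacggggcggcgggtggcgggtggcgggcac
Top2a: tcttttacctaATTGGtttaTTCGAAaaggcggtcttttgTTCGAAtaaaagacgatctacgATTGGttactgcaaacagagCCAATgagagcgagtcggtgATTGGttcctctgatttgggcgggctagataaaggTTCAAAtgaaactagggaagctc
Kif11: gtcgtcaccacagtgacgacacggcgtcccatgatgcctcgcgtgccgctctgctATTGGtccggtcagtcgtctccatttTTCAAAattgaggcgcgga
Prc1: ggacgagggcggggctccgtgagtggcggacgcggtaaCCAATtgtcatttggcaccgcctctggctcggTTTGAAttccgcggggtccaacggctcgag
Cdk1: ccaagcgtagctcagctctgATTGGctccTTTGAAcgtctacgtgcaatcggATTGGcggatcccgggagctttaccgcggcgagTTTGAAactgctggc
Cdc20: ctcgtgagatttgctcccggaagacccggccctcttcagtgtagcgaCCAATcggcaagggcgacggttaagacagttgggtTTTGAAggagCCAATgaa
Ube2c: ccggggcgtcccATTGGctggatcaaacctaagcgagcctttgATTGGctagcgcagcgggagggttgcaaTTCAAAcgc
Ccnb1: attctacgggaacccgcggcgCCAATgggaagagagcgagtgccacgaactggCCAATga
Their places on GRCm38.p6 are chr7:135716380-135716579, chr11:99024190-99024349, chr10:69352913-69353012, chr4:118437344-118437443 and chr13:100786547-100786606 on the minus strand, and chr19:37376282-37376381, chr7:80294376-80294475 (the second listed start of Prc1) and chr2:164769829-164769908 on the plus strand. All lie in the stretch upstream of the named gene's start as listed by RefSeq. By the gene positions of GENCODE M21, the stretches of Prc1, Cdk1, Cdc20, Ube2c and Ccnb1 reach a little into the gene. CHR letters stood both in genes that fell and in genes that did not pass, such as Cdk1, Cdc20 and Ube2c. The windows of Ccnb1, which did not pass, and of Cenpe, which fell (-0.97), held CCAAT but no CHR letters. Those of Nuf2, Mybl2 and Nusap1, which fell, and of Birc5, which did not pass, held neither. Of 710 tested genes outside the 40 with both CHR letters and CCAAT, 17.7% were called lower, with a median log2 fold change of -0.03, beside 17.1% and -0.01 of all 10960 tested genes with a promoter.

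Of the 7 kinases, 6 fell, with a median log2 fold change of -0.55. The exception was Cdk1. Bub1 (chromosome 2, 127801122 to 127831865; gene positions here and below are on mm10, from GENCODE M21) encodes a kinase of the spindle assembly checkpoint, which holds anaphase back until all chromosomes are attached. It read 27.9, 25.6, 33.0 and 26.1 CPM in WT libraries 1 to 4 and 19.6, 16.7 and 21.1 CPM in KO libraries 1 to 3. Its KO libraries all lay below WT, at 19.1 ± 2.2 CPM (SD, n = 3) in KO against 28.2 ± 3.40 (n = 4) in WT (log2 fold change -0.56, SE 0.11, edgeR adjusted p = 0.00267). Bub1b (chromosome 2, 118598211 to 118641591), whose product BubR1 is part of the checkpoint complex that inhibits Cdc20, read 83.8, 81.9, 83.3 and 79.6 CPM in WT libraries 1 to 4 and 68.0, 42.6 and 54.4 CPM in KO libraries 1 to 3. The WT libraries lay close together and the KO libraries spread widely below them, with KO library 2 lowest (log2 fold change -0.58, SE 0.12, edgeR adjusted p = 0.00362). Ttk, the Mps1 kinase that starts the checkpoint signal, fell by a log2 fold change of -0.55. Per kilobase of exon, with the exons of all transcripts merged, its level was the lowest of all 40 genes. The Ttk call was lost without WT library 3 (0.0860), WT library 4 (0.0605), KO library 1 (0.0564) or KO library 3 (0.115) (edgeR adjusted p, range 0.00684 to 0.115 over its alternatives). Aurkb, the kinase of the chromosomal passenger complex, changed by -0.55 (SE 0.12, edgeR adjusted p = 0.00423), and Plk1, the Polo kinase of spindle poles and kinetochores, by -0.40 (0.00560). Aurka, the Aurora kinase of spindle poles, changed less (-0.31, 0.0156), and its call was lost without WT library 1 (0.0641), WT library 2 (0.0531) or KO library 2 (0.0575) (edgeR adjusted p, range 0.000387 to 0.0641). Cdk1, named here after its values were seen, is the kinase that cyclins A and B activate at mitotic entry. It read 114, 121, 115 and 124 CPM in WT libraries 1 to 4 and 102, 95.8 and 110.1 CPM in KO libraries 1 to 3. The KO libraries lay below WT but close to it, and the fall did not pass (log2 fold change -0.21, SE 0.09, edgeR adjusted p = 0.0822).

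Among the mitotic cyclins, which are the regulatory subunits of Cdk1, 2 of 3 fell. Ccna2 (chromosome 3, 36564865 to 36572150), cyclin A2, which acts in S phase and at mitotic entry, read 42.1, 46.4, 45.3 and 42.8 CPM in WT libraries 1 to 4 and 32.3, 33.7 and 34.5 CPM in KO libraries 1 to 3. All KO libraries lay below WT, with 33.5 ± 1.13 CPM (SD, n = 3) in KO against 44.1 ± 2.03 (n = 4) in WT (log2 fold change -0.40, SE 0.09, edgeR adjusted p = 0.00476). Ccnb2 (chromosome 9, 70407692 to 70421547), a B-type cyclin, read 43.6, 41.8, 40.6 and 48.7 CPM in WT libraries 1 to 4 and 35.0, 34.4 and 38.7 CPM in KO libraries 1 to 3. The gap between the groups was narrow, from 40.6 CPM in the lowest WT library to 38.7 in the highest KO library (log2 fold change -0.28, SE 0.10, edgeR adjusted p = 0.0399). The Ccnb2 call was lost without WT library 1 (0.106), WT library 2 (0.0640), WT library 4 (0.157), KO library 1 (0.0534), KO library 2 (0.135) or KO library 3 (0.0634) (edgeR adjusted p), and of the libraries left out in turn only WT library 3 left it in place (range 0.00239 to 0.253 over its alternatives). Ccnb1, the main B-type cyclin and named here after its values were seen, read 54.1, 60.3, 53.9 and 56.7 CPM in WT libraries 1 to 4 and 51.1, 50.6 and 58.4 CPM in KO libraries 1 to 3. Its groups overlapped, with KO library 3 above 3 of the WT libraries (log2 fold change -0.08, SE 0.09, edgeR adjusted p = 0.575).

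Neither of the pair that works with the anaphase-promoting complex passed. Ube2c (chromosome 2, 164769898 to 164778822), the enzyme that supplies ubiquitin to the complex, read 83.8, 89.9, 93.3 and 92.5 CPM in WT libraries 1 to 4 and 79.7, 79.0 and 80.6 CPM in KO libraries 1 to 3. Its KO libraries all lay below WT, by little (log2 fold change -0.17, SE 0.08, edgeR adjusted p = 0.134). Cdc20 (chromosome 4, 118432901 to 118437352), the coactivator that brings substrates to the complex and is the target of the spindle checkpoint, read 47.0, 50.8, 43.0 and 47.4 CPM in WT libraries 1 to 4 and 40.9, 41.9 and 45.4 CPM in KO libraries 1 to 3. Here the groups overlapped, KO library 3 standing above WT library 3 (log2 fold change -0.14, SE 0.09, edgeR adjusted p = 0.282).

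The chromosomal passenger complex holds Aurkb together with Incenp, Birc5 and Cdca8, and corrects faulty attachments before it moves to the midzone for cytokinesis. Incenp (chromosome 19, 9872296 to 9899551), its scaffold, read 293, 270.1, 259.8 and 281 CPM in WT libraries 1 to 4 and 216, 161 and 170.1 CPM in KO libraries 1 to 3. All KO libraries lay below all WT libraries, at 182 ± 29.2 CPM (SD, n = 3) in KO against 276 ± 14.2 (n = 4) in WT (log2 fold change -0.60, SE 0.10, edgeR adjusted p = 0.000829). Cdca8 (chromosome 4, 124918465 to 124939311), borealin, read 66.0, 65.1, 65.5 and 72.3 CPM in WT libraries 1 to 4 and 58.3, 50.9 and 50.5 CPM in KO libraries 1 to 3. Each KO library lay below WT (log2 fold change -0.34, SE 0.09, edgeR adjusted p = 0.0126), a call that was lost without WT library 4 (0.0557) or KO library 3 (0.0754) (edgeR adjusted p, range 0.000903 to 0.292 over its alternatives). Birc5, survivin, which docks the complex on chromatin and is named here after its values were seen, read 97.7, 102, 104 and 112 CPM in WT libraries 1 to 4 and 87.5, 103 and 104 CPM in KO libraries 1 to 3. KO library 1 was the lowest of all 7 and the other KO libraries lay within the WT range (log2 fold change -0.08, SE 0.09, edgeR adjusted p = 0.530). Without KO library 1 the sign of the Birc5 log2 fold change turned, to 0.01. The 4 subunits of this complex, Aurkb included, therefore had log2 fold changes of -0.60, -0.55, -0.34 and -0.08. The differences between them were not tested.

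Of the 5 kinetochore and centromere genes, 4 fell. Cenpe (chromosome 3, 135212537 to 135273611), a kinesin motor of the kinetochore that carries chromosomes to the spindle equator, read 59.95, 53.5, 71.9 and 57.3 CPM in WT libraries 1 to 4 and 42.1, 25.1 and 26.1 CPM in KO libraries 1 to 3. KO libraries 2 and 3 were far below the rest and KO library 1 lay between them and WT (log2 fold change -0.97, SE 0.18, edgeR adjusted p = 0.00434). Cenpf, a large kinetochore protein that also marks cells in G2 phase, showed the same order, at 38.2, 36.0, 53.3 and 35.1 CPM in WT libraries 1 to 4 and 28.6, 16.1 and 18.7 CPM in KO libraries 1 to 3 (log2 fold change -0.95, SE 0.22, edgeR adjusted p = 0.0155); it no longer passed without KO library 3 (0.0812) (edgeR adjusted p, range 9.83e-12 to 0.378). Nuf2 (chromosome 1, 169497934 to 169531464) and Ndc80 encode a dimer that binds microtubules directly. Nuf2 read 23.6, 19.2, 23.4 and 22.9 CPM in WT libraries 1 to 4 and 15.8, 17.5 and 17.4 CPM in KO libraries 1 to 3. All KO libraries lay below WT (log2 fold change -0.40, SE 0.11, edgeR adjusted p = 0.0117). Ndc80 read 27.9, 21.4, 33.4 and 29.5 CPM in WT libraries 1 to 4 and 14.8, 22.3 and 17.9 CPM in KO libraries 1 to 3. Its groups overlapped, since KO library 2 stood above WT library 2 (log2 fold change -0.61, SE 0.16, edgeR adjusted p = 0.0128). It did not pass without KO library 3 (0.0781) (edgeR adjusted p, range 2.59e-06 to 0.0781). Its partner Nuf2 did not have this order, and both were lowest in KO library 1. Cenpa, the histone H3 variant that marks the centromere and is named here after its values were seen, read 52.5, 52.9, 49.5 and 53.1 CPM in WT libraries 1 to 4 and 40.3, 43.4 and 55.1 CPM in KO libraries 1 to 3. KO library 3 was the highest of all 7 and KO libraries 1 and 2 were the lowest, so the groups overlapped (log2 fold change -0.17, SE 0.11, edgeR adjusted p = 0.247).

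All 7 kinesins fell, with a median log2 fold change of -0.70 and a range from -0.84 (Kif20b) to -0.39 (Kif2c). Kif23 (chromosome 9, 61915905 to 61946774), the motor of the centralspindlin complex that bundles midzone microtubules, read 41.9, 36.5, 44.5 and 41.5 CPM in WT libraries 1 to 4 and 25.7, 25.1 and 25.6 CPM in KO libraries 1 to 3. The KO libraries were nearly equal, at 25.5 ± 0.318 CPM (SD, n = 3) in KO against 41.1 ± 3.30 (n = 4) in WT (log2 fold change -0.69, SE 0.10, edgeR adjusted p = 0.000130). Kif11 (chromosome 19, 37376403 to 37421859), the Eg5 motor that pushes spindle poles apart, read 44.9, 44.0, 59.3 and 45.9 CPM in WT libraries 1 to 4 and 28.0, 27.6 and 30.1 CPM in KO libraries 1 to 3. WT library 3 stood apart above the other WT libraries, and all KO libraries lay far below (log2 fold change -0.76, SE 0.11, edgeR adjusted p = 0.000197). Kif15, which works beside Kif11 in holding poles apart, changed by -0.70 (SE 0.11). Kif4, a chromosome-bound kinesin that also acts at the midzone, changed by -0.76, Kif20b by -0.84, and Kif20a, a midzone kinesin needed for cytokinesis, by -0.51. These 4 ran from 12.6 to 13.5 CPM (Kif15), 10.2 to 12.9 (Kif4), 17.2 to 26.1 (Kif20b) and 27.9 to 36.9 (Kif20a) in KO, all below their WT libraries. Kif2c, the microtubule depolymerase MCAK of the centromere, fell least, and its call was lost without KO library 2 (0.0757) or KO library 3 (0.0769) (edgeR adjusted p, range 0.000186 to 0.508).

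**Figure D2:**
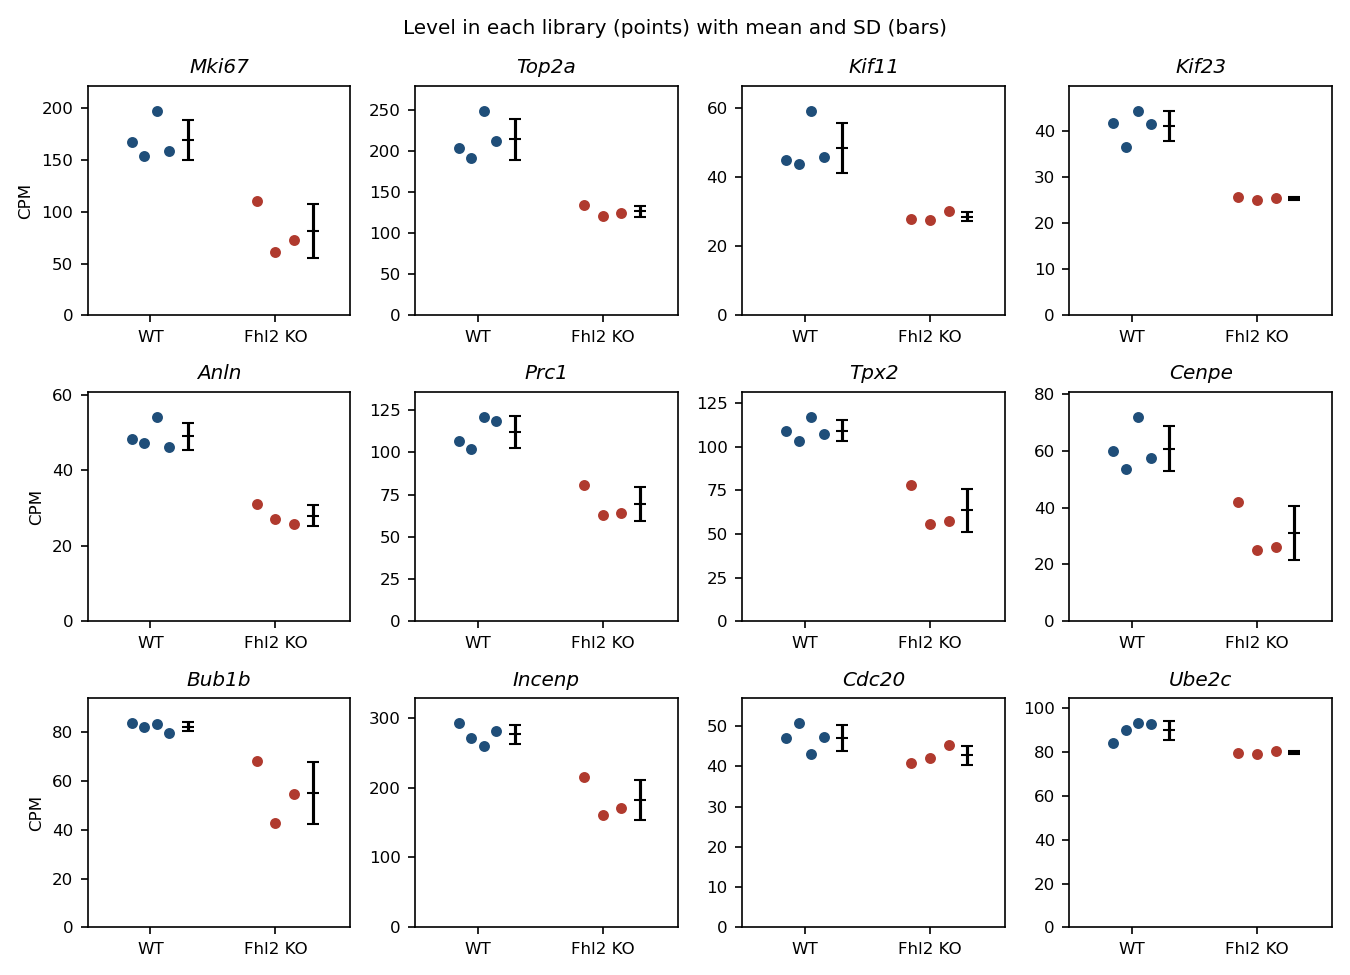
CPM of 12 of the genes in each library (points) by group, with the mean and SD as bars, each panel on its own scale from 0. In the first 10 panels every KO library lies below every WT library, Kif23 with nearly equal KO values and Mki67 and Bub1b with KO library 1 the highest of the KO libraries, whereas Cdc20 overlaps and the gap of Ube2c is small.

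All 4 cytokinesis genes fell. Anln (chromosome 9, 22332012 to 22389188), anillin, the scaffold of the contractile ring, read 48.3, 47.2, 54.2 and 46.2 CPM in WT libraries 1 to 4 and 31.0, 27.2 and 25.8 CPM in KO libraries 1 to 3. All KO libraries lay below WT, at 28.0 ± 2.74 CPM (SD, n = 3) in KO against 49.0 ± 3.59 (n = 4) in WT (log2 fold change -0.81, SE 0.10, edgeR adjusted p = 4.35e-05). Prc1 (chromosome 7, 80294450 to 80316259), which crosslinks the antiparallel microtubules of the midzone, read 106, 102, 121 and 118 CPM in WT libraries 1 to 4 and 80.8, 62.7 and 64.2 CPM in KO libraries 1 to 3. KO library 1 was the highest of the KO libraries and still below every WT library (log2 fold change -0.69, SE 0.11, edgeR adjusted p = 0.000294). Ect2, the exchange factor that activates RhoA at the equator, changed by -0.53 (SE 0.10, edgeR adjusted p = 0.00118). Racgap1, the partner of Kif23 in centralspindlin, changed by -0.35, and its call was lost without WT library 1 (0.0549) or KO library 2 (0.100) (edgeR adjusted p, range 0.00488 to 0.194). Of the centralspindlin pair, Kif23 thus had a log2 fold change of -0.69 and Racgap1 of -0.35, a difference that was not tested.

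The 5 spindle microtubule proteins all fell, with a median of -0.63. Tpx2 (chromosome 2, 152847964 to 152895321), which activates Aurka and starts microtubule growth near chromosomes, read 109, 103, 117 and 108 CPM in WT libraries 1 to 4 and 77.9, 55.5 and 57.8 CPM in KO libraries 1 to 3. All KO libraries lay below WT, KO libraries 2 and 3 furthest (log2 fold change -0.78, SE 0.11, edgeR adjusted p = 0.000164). Aspm (chromosome 1, 139454772 to 139494091), a spindle pole protein, read 23.8, 19.7, 21.2 and 18.1 CPM in WT libraries 1 to 4 and 14.8, 10.3 and 10.8 CPM in KO libraries 1 to 3. KO library 1 was again the highest KO library, and still below WT (log2 fold change -0.79, SE 0.14, edgeR adjusted p = 0.000799). Ckap2l and Hmmr, both spindle proteins, changed by -0.63 and -0.59, with KO libraries at 23.4 to 25.4 and 22.8 to 24.8 CPM and WT libraries at 31.9 to 45.7 and 31.2 to 44.2. Nusap1, which bundles microtubules near chromosomes, fell least (-0.36), and its call was lost without WT library 1 (0.0566), WT library 3 (0.0563) or KO library 3 (0.0892) (edgeR adjusted p, range 0.00693 to 0.177).

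Both transcription factors of the set fell. Foxm1 (chromosome 6, 128362967 to 128376146), a forkhead factor that binds late cell cycle promoters, read 48.8, 49.5, 43.2 and 42.2 CPM in WT libraries 1 to 4 and 38.5, 30.0 and 34.4 CPM in KO libraries 1 to 3. All KO libraries lay below WT (log2 fold change -0.42, SE 0.10, edgeR adjusted p = 0.00794). Mybl2 (chromosome 2, 163054687 to 163084688), B-Myb, which acts with the MuvB complex before Foxm1, read 30.4, 35.5, 27.1 and 31.6 CPM in WT libraries 1 to 4 and 22.3, 21.6 and 26.0 CPM in KO libraries 1 to 3. The gap was narrow, between 27.1 CPM in WT library 3 and 26.0 in KO library 3 (log2 fold change -0.42, SE 0.11, edgeR adjusted p = 0.0104).

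Mki67 and Top2a fell by the most as a class, with a median of -0.91. Mki67 (chromosome 7, 135689784 to 135716361) encodes the Ki-67 protein that coats mitotic chromosomes and is the usual marker of proliferating cells. It read 167, 154, 198 and 159 CPM in WT libraries 1 to 4 and 111, 61.0 and 72.7 CPM in KO libraries 1 to 3. KO library 1 lay between KO libraries 2 and 3 and WT, and the KO mean was 48.1% of the WT mean (log2 fold change -1.06, SE 0.19, edgeR adjusted p = 0.00493). Top2a (chromosome 11, 98992943 to 99024189), the topoisomerase that untangles sister chromosomes, read 204, 192, 249 and 212 CPM in WT libraries 1 to 4 and 134, 121 and 125 CPM in KO libraries 1 to 3. Its KO libraries lay close together, far below WT (log2 fold change -0.76, SE 0.10, edgeR adjusted p = 7.55e-05).

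The roles were then compared by their medians, as a description with no test of the differences. As counted, class medians of the log2 fold change ran from -0.91 (Mki67 and Top2a) over the kinesins (-0.70), spindle proteins (-0.63), cytokinesis (-0.61) and kinetochore genes (-0.61), kinases (-0.55), transcription factors (-0.42), passenger partners (-0.34) and cyclins (-0.28) to -0.16 for Cdc20 and Ube2c. The spread between the highest and lowest class median was 0.75. The roles also differ in transcript length. The median longest transcript was 2871 nucleotides for the kinases, 3888 for the kinetochore genes, 4280.5 for the cytokinesis genes and 4819 for the kinesins. Over the 40 genes, the log2 fold change and log2 transcript length had a Pearson r of -0.721 (Spearman rho -0.703, n = 40 genes, all from the same 7 libraries), given as a description. Over 15573 genes tested with a length, r was -0.344 (rho -0.449).

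The libraries themselves differed in this respect. Log2 CPM relative to the mean of the libraries was set against length, over genes with a mean above 1 CPM. Per doubling of length it changed by 0.06 to 0.09 in WT and by -0.00, -0.17 and -0.13 in KO libraries 1, 2 and 3. Read against genes of their own length, the mitosis genes stood lower in each range. Of 7 genes under 2500 nucleotides, 4 fell, with a median of -0.28, where all genes had 0.20 and 3.59% were called lower. From 2500 to 3500 nucleotides, 8 of 9 fell (median -0.55; all genes 0.04, 9.81% lower), and from 3500 to 5000, 16 of 18 (-0.56; all genes -0.09, 19.1%). The 6 genes of 5000 nucleotides or more, Cenpe, Cenpf, Kif20b, Aspm, Mki67 and Top2a, all fell, with a median of -0.89, where all genes had -0.30 and 39.6% were lower.

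**Figure D3:**
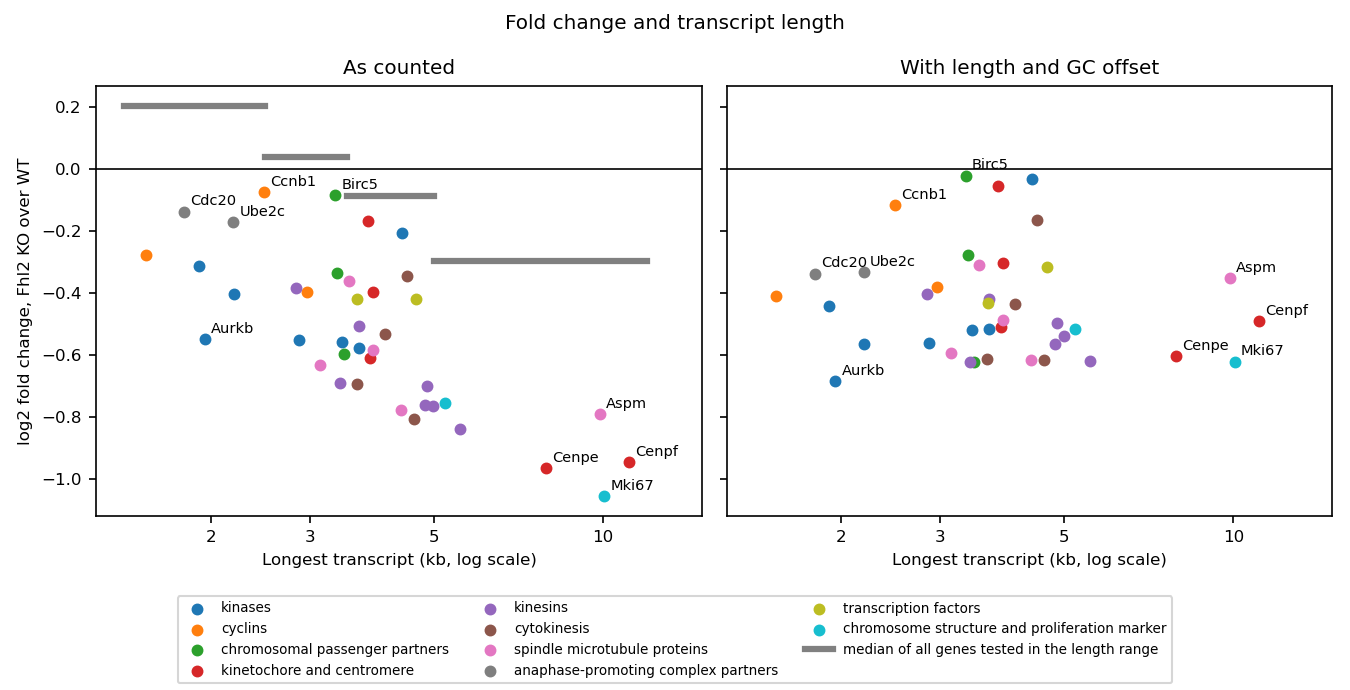
Log2 fold change, KO over WT, of each of the 40 genes (points, coloured by role) against the length of the longest transcript in kb on a log scale, as counted (left) and with a length and GC offset (right); grey bars are medians of all genes tested in each length range. On the left the points descend with length (r of -0.721) and each lies below the grey bar of its range, and on the right the slope is mostly gone (r of -0.139) while the points stay below 0.

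When the dependence of each library's levels on transcript length and GC content was taken out with an offset, 35 of the 40 were called lower (11.4% of all genes lower, 12.3% higher) and none higher, with 0 higher at an unadjusted p under 0.05. The median was -0.49, beside 0.01 over all genes, and r with log2 length was -0.139. The spread of the class medians shrank from 0.75 to 0.29. Kinases had -0.52, kinesins -0.54, kinetochore genes -0.49 and cytokinesis genes -0.53, so these 4 roles lay within a narrow band. Passenger partners had -0.28, cyclins -0.38 and Cdc20 and Ube2c -0.34. Under the offset the changes of Mki67, Cenpe, Cenpf and Aspm were -0.62, -0.60, -0.49 and -0.35, and that of the short Aurkb was -0.68, lower than that of Mki67. Cdc20 (-0.34, edgeR adjusted p = 0.00293, range 0.00293 to 0.577) and Ube2c (-0.33, 0.00399, range 0.00399 to 0.432) passed, and Racgap1 (-0.17, 0.174, range 0.00488 to 0.194) no longer did. Cdk1 (-0.03), Ccnb1 (-0.12), Birc5 (-0.02) and Cenpa (-0.05) did not pass either way.

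**Figure D4:**
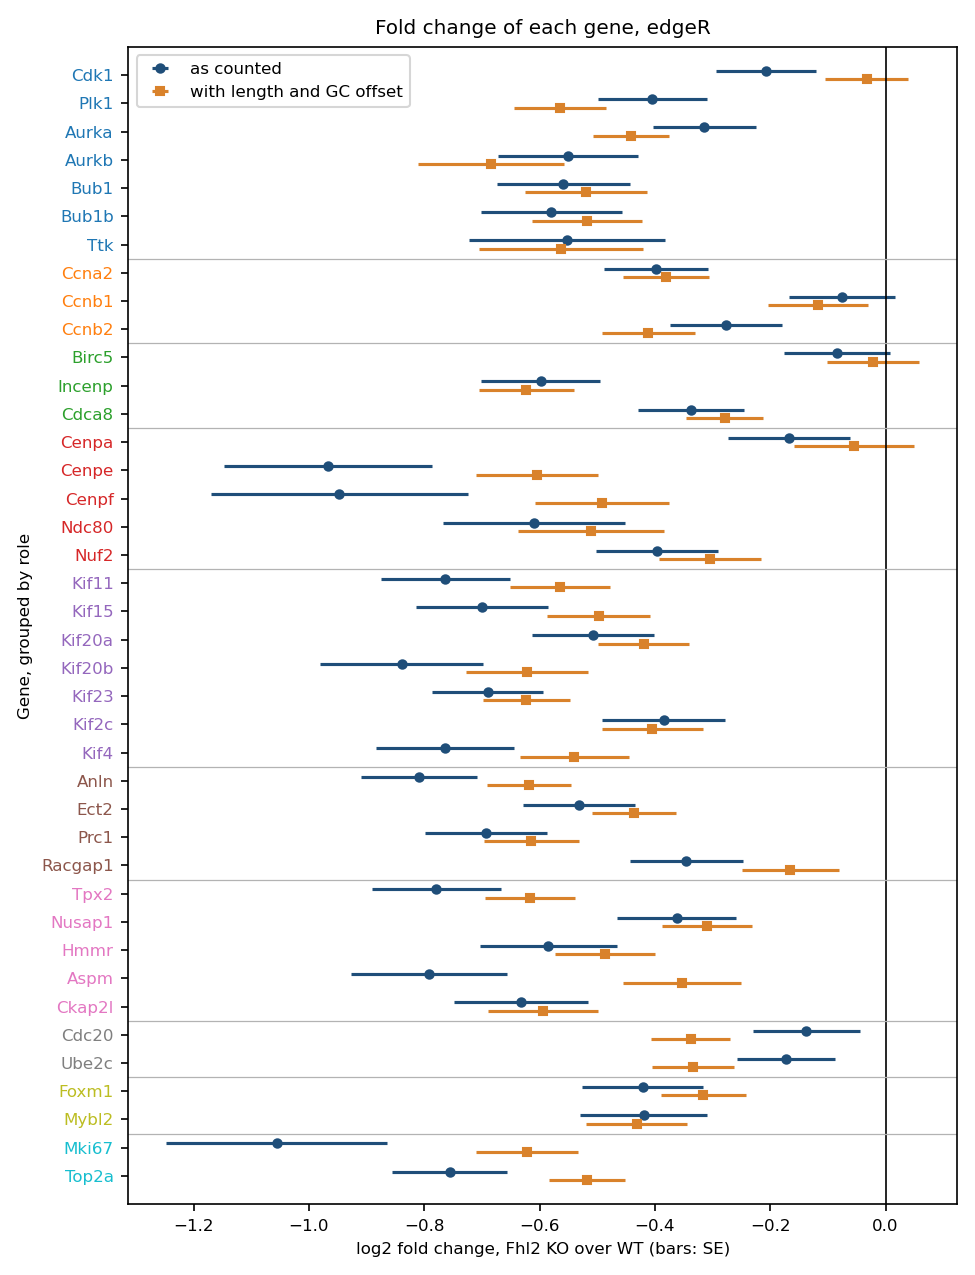
Log2 fold change, KO over WT, of each gene with its SE, as counted (circles) and with the length and GC offset (squares), grouped by role. The offset moves long genes such as Mki67, Cenpe, Cenpf and Aspm towards 0 and short genes such as Plk1, Cdc20 and Ube2c away from it, and Cdk1, Ccnb1, Birc5 and Cenpa lie nearest to 0 with it.

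KO library 1, whose dependence on length was nearest to WT, also held most of the smaller falls. Relative to the WT mean, the 40 genes averaged log2 ratios of -0.43, -0.62 and -0.55 in KO libraries 1, 2 and 3. KO library 1 was the highest of the KO libraries for 23 of the 40 and KO library 2 the lowest for 23. Ndc80 and Nuf2 were highest in KO library 2, and the 6 genes that did not pass were all highest, among the KO libraries, in KO library 3. With KO library 1 as the only KO library against the 4 WT libraries, assumed to vary as they do, 20 of the 40 were called lower (2.97% of all genes lower, 1.63% higher), and none higher (0 at an unadjusted p under 0.05). The median was -0.48. Kinesins (5 of 7), kinetochore genes (4 of 5), cytokinesis genes (3 of 4) and both of Mki67 and Top2a made up most of these, whereas 2 of 7 kinases and 1 of 5 spindle proteins passed. Kif11 (-0.79), Kif23 (-0.68) and Top2a (-0.68) had nearly the change of the full comparison, and Bub1b (-0.28), Aurkb (-0.24) and Kif2c (-0.15) less. The changes of Aspm (-0.48), Plk1 (-0.28), Kif20a (-0.26) and Foxm1 (-0.26) were also smaller than in the full comparison. Cenpa (-0.37, edgeR adjusted p = 0.0488, range 0.0171 to 0.749) passed in this library alone. With the length and GC offset as well, 24 were called lower (3.61% of all genes lower, 2.96% higher), with a median of -0.38. Over the 16 alternative settings, 15 genes kept their call throughout, and the log2 fold change of 39 of the 40 stayed below 0, Birc5 being the exception. How many of all genes did so was not counted.

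Within the WT group, library 3 held the highest value of 20 genes and the lowest of 11, and library 2 the lowest of 17. The deviation of WT library 3 from the other WT libraries went with GC content (r of -0.762 over the 40 genes, a description) and with length (0.556), and that of WT library 2 with GC content in the opposite sense (0.733). The coefficient of variation had a median of 8.22% in WT (2.29% to 21.0%) and of 10.2% in KO (1.02% to 31.9%).

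Per kilobase of exon, with the exons of all transcripts of a gene merged, the WT levels spanned from 63.7 CPM per kb for Incenp to 1.34 for Ttk. Top2a has 9013 such exon bases but a longest transcript of 5221 nucleotides, and Prc1 has 8225 and 3645. The order by longest transcript would therefore differ. Incenp, Plk1 (50.1), Ube2c (34.6), Birc5 (30.6) and Aurka (30.0) were the highest, and Ttk, Aspm (1.79) and Kif15 (1.90) the lowest. The levels of Birc5 and Aurka in this order do not differ beyond their spread. Of the 8 highest in WT on this scale, Ube2c, Birc5, Cdc20 (25.2) and Cdk1 (24.0) were among the 6 genes that did not pass. Which genes are among the 8 depends on the length used. Exons of some of these genes overlap genes on the opposite strand, and the strand setting of the counting is not given in the sources used here. Kif4 shares 15.1% of its exon bases with Pdzd11, Ccna2 12.5% with Exosc9, Prc1 11.1% with Rccd1, Kif20a 29.3% with Cdc23 and Ube2c 22.8% with Tnnc2. Over all libraries, Pdzd11 had 11152 reads beside 4914 of Kif4, and Exosc9 15440 beside 12367 of Ccna2. Cdc23 had 26842 beside 12010 of Kif20a, Rccd1 1943 beside 29113 of Prc1, and Tnnc2 had 2. Their part in the counts was not tested.

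Other genes of cell division followed in part. Of the 8 condensin subunits, which compact chromosomes, 7 fell (median -0.62), led by Ncapg2 at 30.7, 28.3, 37.6 and 31.0 CPM in WT libraries 1 to 4 and 20.1, 14.3 and 17.3 CPM in KO libraries 1 to 3 (log2 fold change -0.89, SE 0.13, edgeR adjusted p = 0.000139). Ncaph followed (-0.77, edgeR adjusted p = 0.000800). Of 28 other spindle, kinesin and cytokinesis genes, 14 fell and none rose (0 higher at an unadjusted p under 0.05 in edgeR and 0 called by DESeq2), with a median of -0.36. Cdca2, which recruits a phosphatase to chromosomes at anaphase (-0.86), and Dlgap5, a spindle assembly factor (-0.68), had the smallest p. Of 26 other mitotic kinases and regulators, 15 fell and 1 rose (median -0.34), with Plk4, the kinase of centriole duplication (-0.79), and E2f7, a repressor of E2F targets (-0.88), first by p. The gene that rose was Lin37, a MuvB subunit (0.31), whose groups overlapped and whose change under the offset was 0.05. Among 32 S phase genes, 17 fell and none rose (0 at an unadjusted p under 0.05, 0 with DESeq2), median -0.26, with Mcm10 (-0.68) and Mcm4 (-0.59), both of the replication machinery, first.

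The remaining lists were mixed. Of 36 other kinetochore and checkpoint genes, 10 fell and 1, Zwint, rose (0.30), with a median of -0.19. Zwint did not pass with the offset (0.27). Ska3 (-0.59), of the complex that holds kinetochores to microtubules, and Hjurp (-0.54), the chaperone that loads Cenpa, fell with the smallest p. Hjurp read 263, 269, 237 and 252 CPM in WT libraries 1 to 4 and 209.7, 147 and 169.8 CPM in KO libraries 1 to 3, while Cenpa itself did not pass. Of 14 cohesin and separase genes, 7 fell and 1 rose (median -0.31). Smc1a, a cohesin ring subunit, fell by a log2 fold change of -0.71. Pttg1, securin, which holds separase inactive until the anaphase-promoting complex destroys it, rose: it read 8.44, 9.38, 8.61 and 9.38 CPM in WT libraries 1 to 4 and 11.8, 14.7 and 16.2 CPM in KO libraries 1 to 3. Every KO library lay above every WT library (log2 fold change 0.67, SE 0.13, edgeR adjusted p = 0.00146). With the offset the change was 0.55. Of 17 subunits and regulators of the anaphase-promoting complex, 3 rose (Anapc16 0.35, Anapc7 0.33 and Anapc2 0.25) and 1 fell, Fbxo5 (-0.65), which inhibits the complex, with a median of 0.13. The 3 of 17 higher are near the share of all genes called higher, 13.5%, and Anapc2 did not pass with the offset (0.17). The genes named as rising in these lists were chosen for their direction after their values were seen, apart from Pttg1 and Anapc16. With the offset, the counts were 7 lower of 8 for condensin, and 15 of 28, 17 of 26 and 16 of 32 for the spindle, regulator and S phase lists. The mixed lists had 14 lower and 2 higher of 36, 6 and 4 of 14, and 1 and 4 of 17. Of all genes, 11.4% were lower and 12.3% higher with the offset, so 2 of 36 higher and 1 of 17 lower lay below those shares. The genes higher with the offset were in part others: Bub3 and Mad2l1 of the kinetochore list, Pttg1, Stag2, Wapl and Pds5a of the cohesin list, and Anapc7, Anapc16, Anapc10 and Cdc26 of the anaphase-promoting complex list, named after their values were seen. Only Pttg1, Anapc7 and Anapc16 of these also passed as counted. Mad2l1 (0.01), Stag2 (-0.04), Wapl (0.01) and Pds5a (-0.17) overlapped between groups as counted. Their longest transcripts have 6171 to 8934 nucleotides, and the offset raised each value. For KO library 1 alone, 2 of 8, 6 of 28, 7 of 26 and 1 of 32 were lower, and 1 of 36, 3 of 14 and 0 of 17, beside 2.97% of all genes, so that the S phase and kinetochore counts lay near that share. Zwint was the only gene of these lists called higher in that fit, and Pttg1 (0.39), Anapc16 (0.23), Anapc7 (0.12), Anapc2 (0.15) and Lin37 (0.01) did not pass in it.

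**Figure D5:**
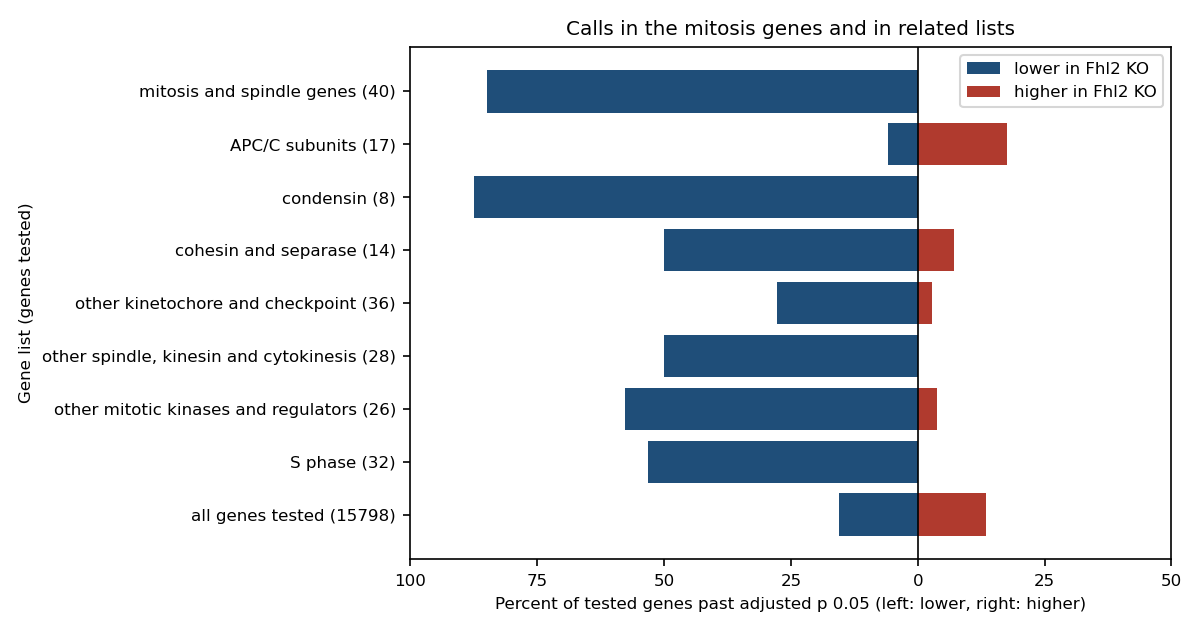
Percent of tested genes called lower (left of 0) or higher (right of 0) in KO by edgeR at adjusted p 0.05, for the 40 mitosis and spindle genes, for 7 lists of related genes and for all genes tested, with the number tested in brackets. The mitosis genes (34 of 40) and condensin (7 of 8) reach furthest left, and the anaphase-promoting complex list (APC/C) has 3 of 17 genes higher, near the 13.5% of all genes.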

How the data were processed

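RNA of 7 libraries was sequenced, after TRIzol extraction and a stranded mRNA library kit per the labels' protocols. Per the submitters' processing notes, the build was mm10 and the tools were HISAT2 2.2.1, featureCounts 1.6.4, DESeq2 1.28.1, Cufflinks 2.2.1, fastp and SAMtools, with no roles. For the counting, neither annotation nor strand setting is given in the sources used here. The deposited values were whole-number read counts per gene symbol, not normalized by the authors.

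Library groups and numbers came from the labels. Genes that passed filterByExpr (minimum count 10) were tested with edgeR 4.0.16 in R 4.3.3 (TMM, glmQLFit with robust estimation, glmQLFTest, genotype only), and all 40 members passed the filter. SE values are on the log2 scale. Adjustment was by Benjamini-Hochberg over all 15798 tested genes. For the length and GC offset, natural splines with 4 degrees of freedom of log2 CPM on the longest transcript's length and GC content (GENCODE M21) were fitted per library on genes above 1 CPM, and 15573 genes with both values were tested. Same-numbered libraries did not deviate together (r of 0.0326, -0.0013 and -0.0324), so the numbers were not taken as pairs. The fit was tested on simulated data. The alternatives were DESeq2 1.42.0, 2 other scalings, 2 other filters, the offset, a replicate block, each library left out, and KO library 1 alone; the last with the offset was added after seeing the data. Promoter letters were counted in the RefSeq promoter table.

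The members and the lists were chosen with earlier results of these data known. Values in every library are given for the 2 members of each role with the smallest p, and up to 2 genes of smallest p for each related list; other members with such values are Cdk1, Ccnb1, Birc5, Cenpa, Cenpf and Ndc80, chosen after their values were seen.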

Additional observations from a re-analysis of the deposited data

Results flagged for a closer look

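With 4 WT libraries, a library can be compared with the gap to its nearest neighbour over the range of the group. Of 55 genes examined in this way, 4 had a WT library that stood apart, and chance alone flags about 1 in 20 groups. Kif11 stood highest in WT library 3, at 59.3 CPM, and Cdca8 highest in WT library 4, at 72.3 CPM. Nuf2 stood lowest in WT library 2, at 19.2 CPM. Ncaph, the condensin subunit, stood lowest in the same library, at 27.3 CPM. Leaving out WT library 4 ended the Cdca8 call (edgeR adjusted p = 0.0557, range 0.000903 to 0.292 over its alternatives), and those of Kif11 and Nuf2 were kept without the library that stood apart.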

How the results depend on the processing

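With the replicate number as a block, 31 of the 40 genes were called lower by edgeR; the numbers do not pair the samples. DESeq2 called 34, where 2576 of 15789 genes were called lower. Median-of-ratios size factors gave 34, library totals 33, no filter 33 and a filter of 1 CPM in 3 libraries 34. Leaving out each library in turn left 27 to 32 called. For the block, these scalings and filters and the libraries left out, the share of all genes called was not counted. With KO library 1 alone, 20 were called; that fit has fewer KO samples. None of the 40 was called higher under any of these or with the offset. The log2 fold change of Birc5, -0.08 with all libraries, ran from -0.12 to 0.01 with each library left out, and was above 0 only without KO library 1 (0.0126, edgeR adjusted p = 0.919, range 0.0584 to 0.919 over its alternatives), and the cause was not tested. Fhl2 fell in every setting (log2 fold change -1.26 to -0.74). With 152 to 374 counts per library, Ttk was the member with the fewest counts, which limits its precision.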
